A study of Mus musculus with 8 samples.

Results

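The mouse genes orthologous to those of the human 22q11 region were followed as a group of 32 listed symbols, all of them placed on mouse chromosome 16. Of these, 31 had a row in the deposited tables, out of 24542 symbols in all, and Ufd1l had none under that name. The group was chosen by measured values of these data, because chromosome 16 carried more Cast than B6 reads in wild-type (WT) and Hdac3KO Rep1 samples but not in Hdac3KO Rep2. That split of the samples is therefore given below as a description, with no test.

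The samples are RNA-seq of TX1072, a female mouse embryonic stem cell (ESC) line that is a hybrid of Mus musculus castaneus (Cast) and C57BL/6 (B6), so that reads over strain differences can be assigned to an allele. Xist, the RNA that silences the X chromosome, can be switched on from its own locus on the B6 X chromosome with doxycycline (Dox). The 4 groups of 2 samples each were WT at 0h, WT after 24h of Dox at 1 µg/ml, Hdac3KO at 0h and Hdac3KO after 24h of Dox at 1 µg/ml, all grown in serum with LIF and 2 inhibitors on gelatin. The Hdac3KO samples come from single-cell clones made with CRISPR/Cas9 and paired guides, so a difference between Rep1 and Rep2 holds both the clone and the sample, and the WT samples are duplicates of 1 line.

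The 22q11 region is best known because losing 1 copy of it causes a human syndrome with defects of the heart outflow tract, palate, thymus and parathyroid glands and with cognitive and psychiatric features. The genes there have no common pathway. They code for nuclear factors, mitochondrial enzymes, adaptors of protein turnover and signalling proteins, and many are used in nearly every cell, whereas others such as Tbx1 act in particular embryonic tissues.

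The samples went with their labels in the genes that the design acts on. Total reads ran from 6940375 to 17125156 per sample, of which 30.1% to 31.6% were assigned to an allele. Hdac3, the histone deacetylase that was targeted, had 39.4 to 43.4 CPM (reads of a gene per 1e+06 reads of the sample) in the 4 WT samples and 5.54 to 7.22 CPM in the 4 Hdac3KO samples. Xist had 7.25 to 17.1 CPM at 0h and 1534 to 2050 CPM after Dox. The ESC genes Pou5f1 and Nanog were at 473 to 576 CPM and 963 to 1609 CPM. Of the 16 markers of primed cells, endoderm, mesoderm, neural cells and fibroblasts, 10 (Fgf5, Gata6, Gata4, Sox17, Sox7, Mixl1, Sox1, Pax6, Col1a2 and Postn) had at most 5.98 CPM in any sample. The others were not absent, with Dnmt3b at 83.2 to 153 CPM, T at 23.7 to 67.8, Pou3f1 at 12.6 to 31.7, Col1a1 at 15.9 to 29.6, Thy1 at 10.8 to 28.3 and Otx2 at 4.32 to 14.3 CPM, and their part in the results was not tested. Nothing in the labels says which Hdac3KO clone a replicate number stands for.

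Of the 31 members, 22 had at least 10 allelic reads, and so a d-score, in all 8 samples. The d-score is the share of a gene's allelic reads that carry the B6 allele, so 0.5 means equal reads from B6 and Cast. Txnrd2 had a d-score in 4 samples and Ypel1 in 6. Both lacked it in Hdac3KO Rep2, where they had 5 to 9 allelic reads, and Txnrd2 lacked it in other samples too. The other 7 (Tbx1, Slc7a4, Cldn5, Gp1bb, Rtn4r, P2rx6 and Serpind1) had none. For total counts, 26 members passed a filter of more than 1 TPM (reads per length of the gene, scaled to a common sum) in at least 2 samples. The member block runs from position 16870736 to 18970309 of chromosome 16 (GRCm38), from Top3b to Hira, and 65 symbols start inside it.

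The promoters are shown first, since the members share a stretch of chromosome. RefSeq start sites on GRCm38.p6 were found for 30 of the 31 members, all but Slc7a4, each with a window from 250 bases before to 50 bases after the start. The GC box GGGCGG, on either strand, was in 22 of 30 member windows (73.3%), against 35.7% of all 32851 RefSeq windows. For members only the first start site was counted, whereas the full set can hold several per gene and includes noncoding genes. Member windows that overlap, such as those of Ranbp1 and Trmt2a, were each counted. CCAAT was in 17 of 30 (56.7%, against 37.4%), and TATAAA was in 4 of 30 (13.3%, against 13.6%). The E box CACGTG was in 2 of 30 (6.67%, against 7.15%), those of Slc25a1 and Klhl22. These are letter matches and not binding sites.

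3 windows are printed because their genes mark the range of the values that follow. Slc25a1 had the largest Cast difference of the scored members, Klhl22 the smallest, and Ranbp1 and Trmt2a are a divergent pair whose windows overlap by 288 of their 300 bases, so that 1 stretch of sequence serves for both. Capitals mark GC boxes, CCAAT boxes and E boxes in either orientation, and in the Klhl22 window one pair of GC boxes overlaps. The windows are chr16:17928170-17928469 on the minus strand, chr16:17759391-17759690 on the plus strand and chr16:18248633-18248932 on the plus strand, in that order.
Slc25a1: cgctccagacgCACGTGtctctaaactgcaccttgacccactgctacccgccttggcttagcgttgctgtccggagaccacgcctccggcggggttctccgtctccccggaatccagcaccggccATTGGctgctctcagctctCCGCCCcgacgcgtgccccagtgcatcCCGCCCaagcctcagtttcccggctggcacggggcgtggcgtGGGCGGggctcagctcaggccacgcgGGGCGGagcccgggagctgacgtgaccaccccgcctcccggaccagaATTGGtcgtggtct
Klhl22: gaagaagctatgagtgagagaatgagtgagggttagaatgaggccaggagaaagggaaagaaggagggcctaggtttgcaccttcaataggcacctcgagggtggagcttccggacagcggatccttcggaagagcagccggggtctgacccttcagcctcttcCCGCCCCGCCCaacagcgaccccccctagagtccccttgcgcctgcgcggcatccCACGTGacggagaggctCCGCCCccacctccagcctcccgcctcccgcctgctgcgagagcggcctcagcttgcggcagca
Trmt2a: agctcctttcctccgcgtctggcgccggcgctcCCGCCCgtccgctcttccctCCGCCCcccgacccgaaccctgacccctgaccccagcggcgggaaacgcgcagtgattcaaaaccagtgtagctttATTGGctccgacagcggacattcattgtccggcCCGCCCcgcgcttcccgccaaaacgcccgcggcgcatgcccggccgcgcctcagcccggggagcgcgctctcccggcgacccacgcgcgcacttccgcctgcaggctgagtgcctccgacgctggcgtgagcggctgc

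The allelic balance of the members was compared first across the 8 samples. The median d-score of the 22 scored members was 0.331 and 0.312 in WT at 0h, 0.355 and 0.308 in WT at 24h, 0.338 and 0.317 in Hdac3KO Rep1 at 0h and 24h, and 0.494 and 0.490 in Hdac3KO Rep2 at 0h and 24h. With the reads of all 22 pooled, the d-score lay between 0.325 and 0.343 in the first 6 samples, on 5461 to 12654 allelic reads. It was 0.496 (95% Wilson interval 0.483 to 0.508) in Hdac3KO Rep2 at 0h on 6311 reads, and 0.497 (0.484 to 0.511) at 24h on 5198 reads. Hence Cast reads outnumbered B6 reads by 1.91 to 2.08 to 1 in 6 samples, and by 1.02 and 1.01 to 1 in both Hdac3KO Rep2 samples. The Wilson intervals cover counting error only.

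Summed over the 22 members, the Cast level was lower in Rep2 and the B6 level was not. Levels are CPM scaled between samples by the TMM method. The summed B6 level was 264.97 and 264.5 CPM in WT at 0h, 256 and 262 CPM in WT at 24h, 254 and 241 CPM in Hdac3KO Rep1, and 267 and 259 CPM in Hdac3KO Rep2. The summed Cast level was 514 and 522 CPM in WT at 0h, 490.1 and 517 CPM in WT at 24h, 499 and 499.996 CPM in Hdac3KO Rep1, and 272 and 262 CPM in Hdac3KO Rep2. The B6 sums of Rep2 lay inside and just above the range of the other 6, and the Cast sums lay well below it. In bulk RNA, fewer cells that express a gene and less RNA per cell cannot be told apart. DNA copy number was not measured here, so its part in the values was not tested.

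**Figure D1:**
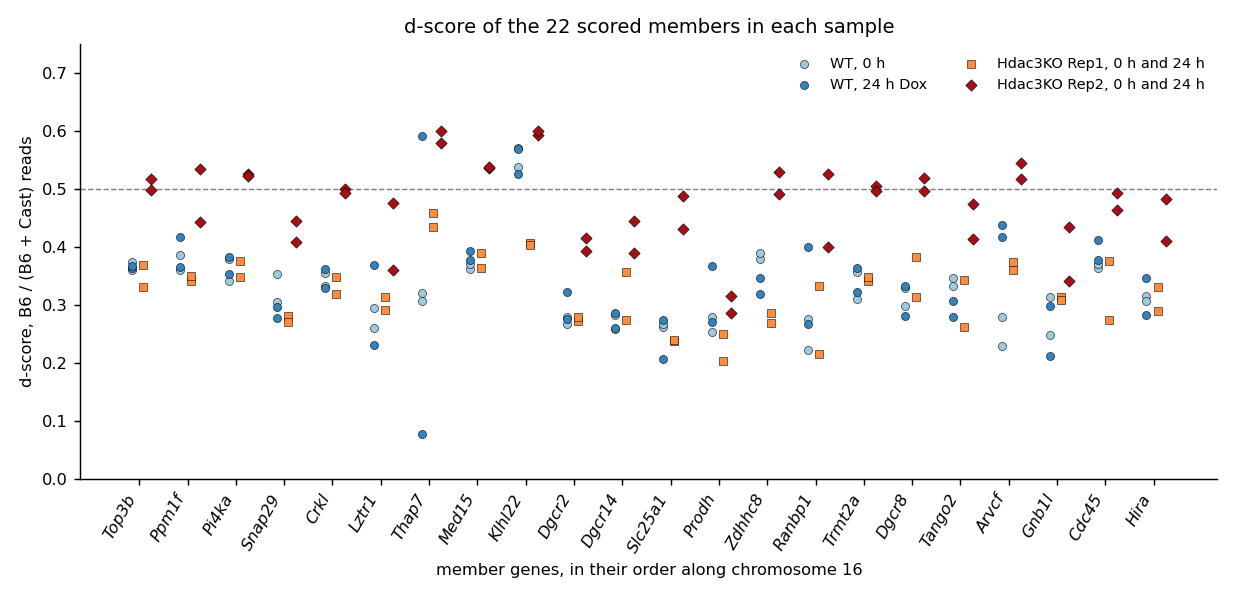
The d-score (B6 share of allelic reads, y axis) of each of the 22 scored members (x axis, in chromosome order) is plotted with 1 point per sample, and the dashed line marks 0.5. Both Hdac3KO Rep2 points lie above all other samples in 18 genes, the exceptions being Lztr1, Thap7, Prodh and Ranbp1.

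Gene by gene, the d-score of Rep2 exceeded every other sample in 18 of the 22 members. Over all 9595 scored genes the same held for 7.14%. Because the members were selected on this split, nothing is read from the count. The 4 exceptions were Thap7, Ranbp1, Prodh and Lztr1, which had as few as 13, 19, 14 and 42 allelic reads in a sample. Klhl22, with 6868 allelic reads over the 8 samples, was the only scored member with a d-score above 0.5 in every WT sample. As for direction, all 22 had a higher mean d-score in Rep2 than in the other 6, by 0.03 (Prodh) to 0.22 (Thap7) and by a median of 0.141. Outside the 22, the mean B6 share of Ypel1 and Txnrd2 was slightly lower in Rep2 (differences of -0.03 and -0.02). These 2 genes had as few as 5 and 7 allelic reads in a sample.

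The Cast level was lower in Rep2 than in each of the other 6 samples for 20 of 22 members (12.2% of all scored genes), all but Klhl22 and Arvcf. For the B6 level the count was 0 of 22 lower (9.39% of all scored genes) and 2 of 22 higher (8.92%), Dgcr8 and Klhl22. The minimum of 10 allelic reads in every sample leaves out members that were scarce in Rep2. Of these, Ypel1 had both B6 and Cast levels in Rep2 below all other samples, with log2 differences of -0.81 and -1.14. In Txnrd2 both levels of Rep2 overlapped the other samples. The median log2 difference, Rep2 minus the other 6, was -0.81 for Cast, -0.05 for B6 and -0.56 for all reads. The B6 difference was below 0 in 12 members and above 0 in 10, and its median turned positive when samples at 0h alone were used (0.03). Reads that could not be assigned to an allele, which the d-score does not use, differed by a median of -0.52. They are part of the total reads, and over all scored genes of chromosome 16 the median was -0.45. Total level was below all other samples in 22 of the 26 members that passed the TPM filter (13.9% of all genes tested), and Dgcr8, Top3b, Klhl22 and Arvcf were the exceptions.

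**Figure D2:**
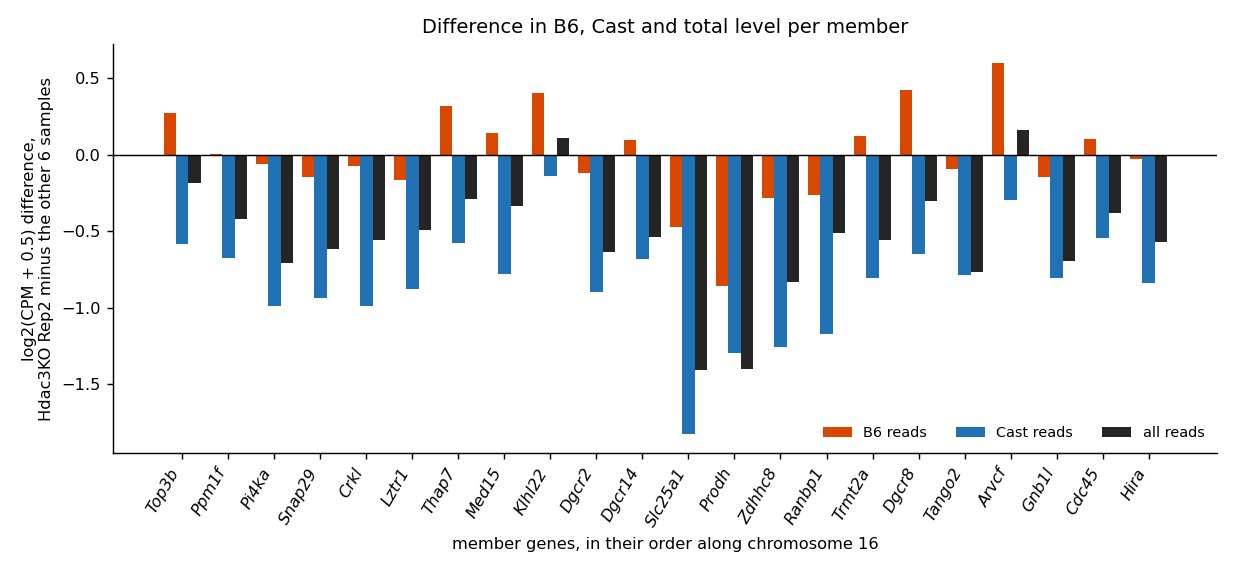
Bars give the difference in log2(CPM + 0.5) between the mean of both Hdac3KO Rep2 samples and the mean of the other 6, for B6, Cast and all reads of each scored member in chromosome order. All 22 Cast bars are below 0, the B6 bars lie on both sides of 0, and only Klhl22 and Arvcf have a total above 0.

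Among members with nuclear roles, Hira showed the pattern in its plainest form. Hira, a chaperone that places histone H3.3 on DNA (positions 18877037 to 18970309, plus strand), had total levels of 114, 116, 112 and 113 CPM in WT, 113 and 105 CPM in Hdac3KO Rep1 and 77.3 and 73.8 CPM in Rep2. Its Cast level was 24.7 to 26.6 CPM in WT, 27.1 and 23.6 CPM in Rep1 and 15.3 and 13.04 CPM in Rep2, while its B6 level was 10.2 to 13.1 CPM in WT, 13.4 and 9.58 CPM in Rep1 and 10.7 and 12.1 CPM in Rep2. The B6 values of Rep2 overlapped those of the other samples, and its Cast and total values did not.

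Dgcr8, the RNA-binding partner of Drosha in the Microprocessor that cuts primary microRNAs (positions 18253948 to 18289246, minus strand), differed from Hira. Its total level was 112, 102, 94.7 and 98.9 CPM in WT, 76.6 and 81.5 CPM in Rep1 and 78.1 and 73.0 CPM in Rep2, so both Hdac3KO replicates were below every WT sample. Its d-score was 0.299, 0.329, 0.333 and 0.281 in WT, 0.313 and 0.383 in Rep1 and 0.496 and 0.519 in Rep2. The total level thus set both Hdac3KO replicates apart from WT, and the d-score set only Rep2 apart.

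Med15, a Mediator subunit, had totals of 179 to 191 CPM in WT, 205 and 194 CPM in Rep1 and 155 and 145 CPM in Rep2. Top3b, a topoisomerase that also acts on RNA, had 126 to 146 CPM in WT, 174 and 176 CPM in Rep1 and 134 and 124 CPM in Rep2, which overlapped WT. Its Cast level nevertheless was 31.2 to 39.5 CPM in WT and 26.0 and 24.1 CPM in Rep2, without overlap, and its B6 level was 18.7 to 22.3 CPM in WT and 27.8 and 24.0 CPM in Rep2. In Rep2 a lower Cast level of Top3b thus stood beside a higher B6 level than in WT, with totals inside and just below the WT range. The higher B6 level was not particular to Rep2, since it overlapped that of Rep1. In Rep1 both B6 and Cast levels were above WT on average, with log2 differences of 0.33 and 0.44.

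Trmt2a, a tRNA methyltransferase, and Ranbp1, which binds the Ran GTPase, start beside each other and point in opposite directions. The Trmt2a total was 64.3, 77.0, 68.6 and 86.2 CPM in WT, 64.5 and 62.0 CPM in Rep1 and 49.7 and 45.3 CPM in Rep2. The Ranbp1 total was 936, 952, 948 and 1013 CPM in WT, 848 and 767 CPM in Rep1 and 640 and 634 CPM in Rep2. In both genes Rep2 was below all other samples, and the log2 differences of the totals were close, at -0.55 and -0.51. Per length, Ranbp1 was the most abundant member, at 1329 to 2134 TPM, but it had only 355 allelic reads over all samples against 3141 of Trmt2a, so its d-score is the less precise. Counting was strand-specific, which keeps reads of such overlapping pairs apart.

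The other scored nuclear members behaved alike in Cast reads. Dgcr14, a splicing-associated protein also named Ess2, Cdc45, a part of the replicative helicase, and Thap7, a THAP-domain repressor, had Cast log2 differences of -0.68, -0.54 and -0.58 and total differences of -0.54, -0.38 and -0.29. Tbx1, the T-box transcription factor most closely tied to the heart defects of the syndrome, had 0 to 6 reads and at most 0.527 CPM in any sample, so nothing about its dosage was detectable at this depth.

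The metabolic members included the scored genes with the largest differences in total and Cast level. Slc25a1, the carrier that exports citrate from mitochondria (positions 17925223 to 17928219, minus strand), had total levels of 243, 238, 249 and 234 CPM in WT, 171 and 162 CPM in Rep1 and 80.2 and 79.8 CPM in Rep2. Its Cast level was 85.5, 86.4, 89.1 and 89.2 CPM in WT, 57.9 and 60.2 CPM in Rep1 and 22.1 and 20.5 CPM in Rep2, and its B6 level was 30.4, 31.6, 33.7 and 23.4 CPM, 18.2 and 18.8 CPM, and 16.7 and 19.6 CPM in the same order. WT, Rep1 and Rep2 formed 3 separate steps in total and in Cast reads, whereas the B6 levels of Rep1 and Rep2 overlapped below WT. The Slc25a1 d-score was 0.208 to 0.274 in WT, 0.239 and 0.238 in Rep1 and 0.431 and 0.489 in Rep2.

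Prodh, the proline dehydrogenase of mitochondria, was sparse, with 29 to 135 reads per sample. Its total was 9.49, 9.93, 13.5 and 10.3 CPM in WT, 5.17 and 7.47 CPM in Rep1 and 2.48 and 3.81 CPM in Rep2. Its d-score in Rep2 (0.286 and 0.316) was within the 0.254 to 0.368 of WT, but it is imprecise, with as few as 14 allelic reads in a sample. The Cast level of Rep2 was below all other samples. The B6 level of Rep2 overlapped the other samples, and that of Rep1 was already below WT on average (log2 difference -0.76). Prodh and Slc25a1 were the scored members with the largest total differences between Rep2 and the other 6, at -1.40 and -1.41 on the log2 scale. The pseudocount of 0.5 CPM reduces the difference of genes as low as Prodh.

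Tango2, whose loss disturbs metabolism in humans, had 3.59 and 5.52 CPM in Rep2 and 6.59 to 9.04 CPM elsewhere. Txnrd2, the mitochondrial thioredoxin reductase, had 4.18 and 4.71 CPM in Rep2 and 5.71 to 8.40 CPM elsewhere, with too few allelic reads to say on which allele. Slc7a4, a transporter-like membrane protein, had at most 10 reads in any sample.

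Members that act in protein turnover, membrane traffic and lipid signalling included the main exception. Klhl22, a substrate adaptor of CUL3 ubiquitin ligases (positions 17759618 to 17793382, plus strand), had totals of 96.6, 109.7, 92.6 and 107 CPM in WT, 159.8 and 176 CPM in Rep1 and 130.4 and 128 CPM in Rep2. Its Cast level was 25.1, 28.0, 21.3 and 29.4 CPM in WT, 56.3 and 62.3 CPM in Rep1 and 31.2 and 30.4 CPM in Rep2, and its B6 level was 33.4, 32.5, 28.2 and 32.7 CPM, 38.0 and 42.6 CPM, and 45.5 and 45.6 CPM. Both Hdac3KO replicates were above WT, in Rep1 more through Cast reads and in Rep2 more through B6 reads. The Klhl22 d-score was 0.571, 0.538, 0.570 and 0.526 in WT, 0.403 and 0.406 in Rep1 and 0.594 and 0.6003 in Rep2, with no overlap between any of these.

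Zdhhc8, a palmitoyltransferase, was lower in both Hdac3KO replicates, with totals of 58.3, 69.2, 62.0 and 78.0 CPM in WT, 39.3 and 36.5 CPM in Rep1 and 30.2 and 31.3 CPM in Rep2. Its d-score was 0.318 to 0.389 in WT, 0.286 and 0.268 in Rep1 and 0.529 and 0.492 in Rep2. The lower total of Rep1 thus went with a B6 share below that of WT, with a mean d-score difference of -0.08. On the log2 scale the difference between Rep1 and WT was -1.07 for B6 and -0.64 for Cast. Pi4ka, a phosphatidylinositol 4-kinase of the plasma membrane, had totals of 136 to 163 CPM in WT, 156 and 162 CPM in Rep1 and 95.6 and 92.8 CPM in Rep2. Its B6 level hardly differed between groups, at 17.3 to 20.5 CPM in the first 6 samples and 17.8 and 18.2 CPM in Rep2. Snap29, a SNARE protein of membrane fusion, and Lztr1, a CUL3 adaptor for RAS proteins, had Cast differences of -0.93 and -0.88 and total differences of -0.61 and -0.49. Ufd1, the current symbol of the listed Ufd1l and a cofactor of the p97 segregase, was not counted as a member, and its d-score was 0.288 to 0.363 in the first 6 samples and 0.449 and 0.474 in Rep2.

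**Figure D3:**
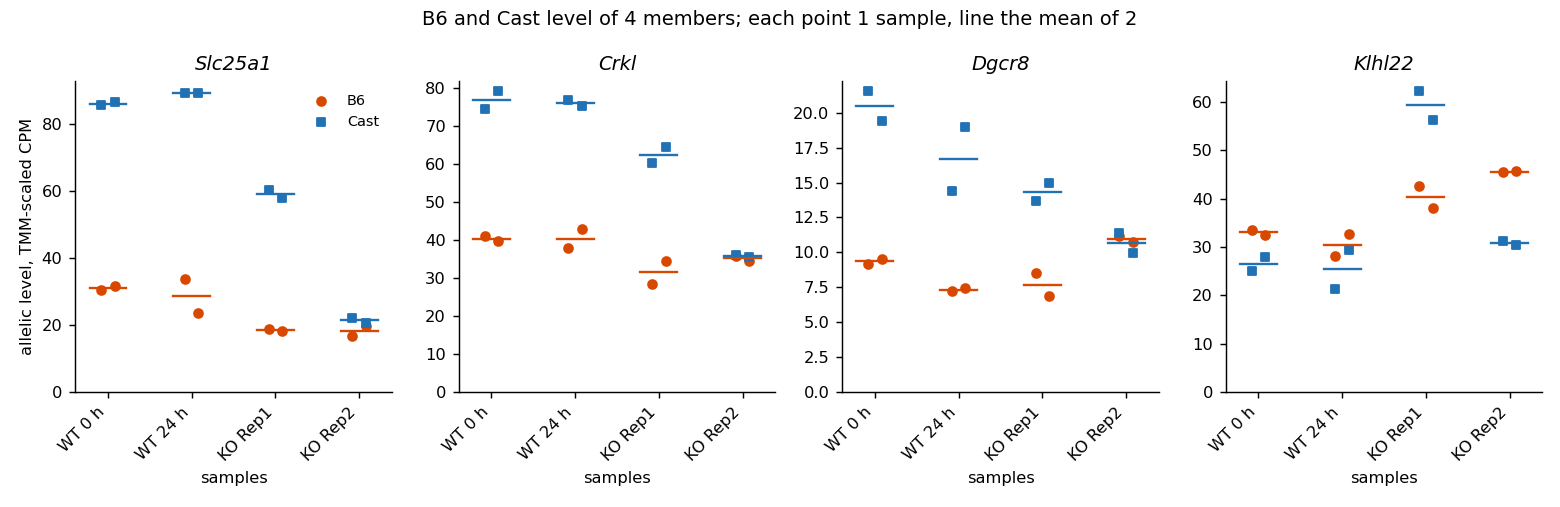
B6 and Cast levels (TMM-scaled CPM, y axes from 0) of Slc25a1, Crkl, Dgcr8 and Klhl22 are shown with 1 point per sample and a line at the mean of the 2 samples; KO Rep1 and KO Rep2 each hold the 0h and the 24h sample. Cast exceeds B6 in the first 3 columns of the first 3 genes and nearly equals it in Rep2, while Klhl22 has more B6 than Cast in WT and Rep2 and more Cast than B6 in Rep1.

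Among the signalling and adhesion members, Crkl, an SH2 and SH3 adaptor of growth factor signalling (positions 17451987 to 17487434, plus strand), rested on the most allelic reads of all members, 9142. Its total was 184, 195, 181 and 198 CPM in WT, 159 and 147 CPM in Rep1 and 123 and 117 CPM in Rep2. Its d-score was 0.356, 0.333, 0.330 and 0.363 in WT, 0.349 and 0.320 in Rep1 and 0.499 and 0.493 in Rep2. Its Cast level was 74.3 to 79.3 CPM in WT, 64.4 and 60.4 CPM in Rep1 and 35.9 and 35.4 CPM in Rep2. The 3 sets of samples were again stepwise in total and Cast level, and the d-score of Rep1 lay inside or just below the WT range.

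Dgcr2, an adhesion receptor-like membrane protein, had totals of 116, 128, 102 and 104 CPM in WT, 96.5 and 94.8 CPM in Rep1 and 70.6 and 65.5 CPM in Rep2, and its d-score was 0.268 to 0.322 in WT and 0.415 and 0.394 in Rep2. Ppm1f, a phosphatase of PAK kinases, had 49.5 to 58.9 CPM in the first 6 samples and 39.4 and 39.6 CPM in Rep2. Arvcf, a catenin that binds cadherins, was higher in both Hdac3KO replicates than at the same time in WT. Its total was 41.0 and 30.5 CPM in WT at 0h, 60.9 and 44.2 CPM in WT at 24h, 68.5 and 87.4 CPM in Rep1 and 52.9 and 64.8 CPM in Rep2. The WT values themselves differed widely and overlapped those of Rep2.

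Gnb1l, a WD40-repeat protein, had 26.8 to 32.2 CPM in WT, 39.7 and 33.5 CPM in Rep1 and 18.9 and 19.2 CPM in Rep2. Cldn5, a tight junction protein, had 0 to 31 reads, Rtn4r, the Nogo receptor, 1 to 13 reads, and Ypel1 11 to 61 reads per sample, so their totals are imprecise. The platelet receptor subunit Gp1bb, the ATP-gated channel P2rx6 and the thrombin inhibitor Serpind1 had at most 3 reads in any sample.

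The members were next set beside other genes, again without a test. The 314 scored genes of chromosome 16 as a whole had median d-scores of 0.331 to 0.341 in the first 6 samples and 0.5 and 0.493 in Rep2. Outside the 22q11 orthologs, 283 scored genes of chromosome 16 differed by a median of 0.157 in d-score and -0.83 in Cast level, and the 400 with a tested total by -0.45. The members' medians were 0.141, -0.81 and -0.56. For 12932 genes of the other autosomes the median total difference was 0.00, and the d-score medians of the 8948 scored ones lay between 0.505 and 0.508 in all 8 samples.

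22q11 orthologs that lie elsewhere in the mouse genome did not have this balance. The 13 scored ones on chromosome 10 had median d-scores of 0.473 to 0.493 in the first 6 samples and 0.489 and 0.497 in Rep2, and the 7 on chromosome 6 had 0.436 to 0.496 and 0.436 and 0.495. Their median total differences were -0.02 and -0.13. On chromosome 6 all 9 with a tested total had a difference below 0. In 5 of these 9 the total of Rep2 lay below all other samples. The same held for 2 of 16 on chromosome 10 and for 13.9% of all genes tested. On chromosome 16 itself, 9 further scored 22q11 orthologs outside the list had a median d-score difference of 0.184 and a median Cast difference of -0.74, and the 15 with a tested total had -0.30.

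**Figure D4:**
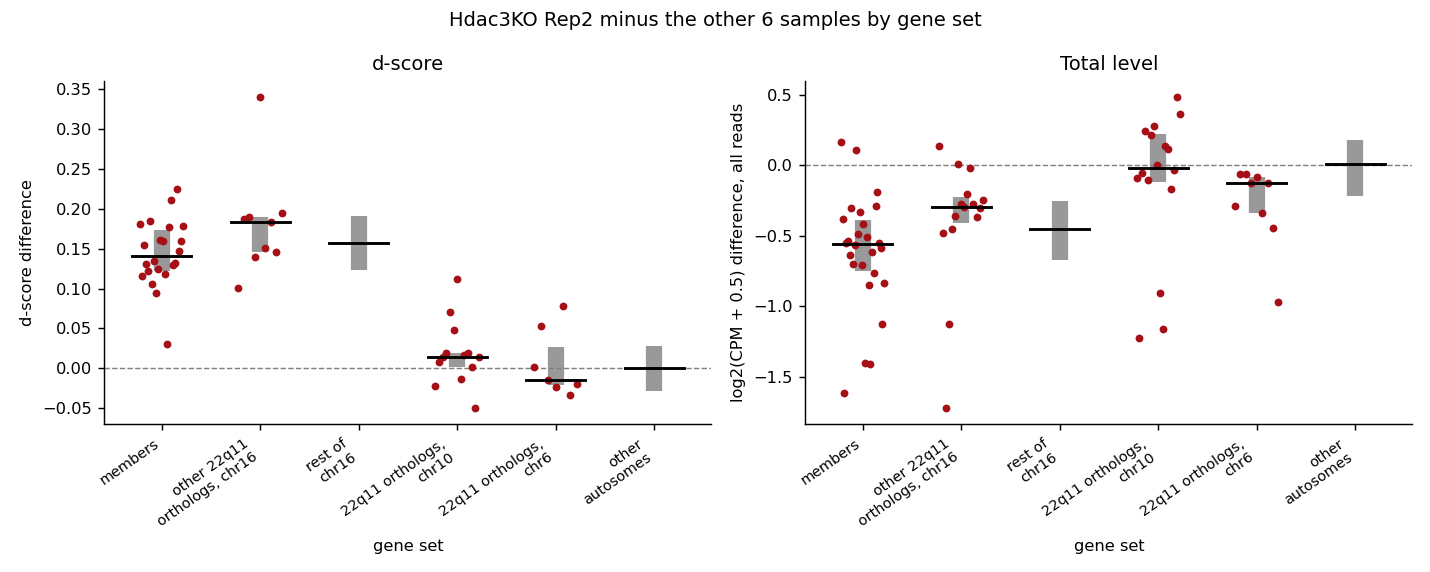
For each gene set the black line is the median and the grey bar the quartiles of the difference in d-score (left) and in log2(CPM + 0.5) of all reads (right) between Hdac3KO Rep2 and the other 6 samples; red points are single genes of the listed sets. The 3 sets on chromosome 16 have median d-score differences of 0.141 to 0.184, and the sets on other chromosomes lie near 0.

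The effect of Hdac3 loss at 0h was then tested on total counts with edgeR's quasi-likelihood test, 2 Hdac3KO against 2 WT samples, 1 of them the Rep2 sample on which the group had been selected. It called 5 of the 26 members at an adjusted p under 0.05 (13.5% of all 13455 genes tested were called). Klhl22 rose by 0.51 on the log2 scale (SE 0.13, adjusted p = 0.038) and Arvcf rose by 0.78 (SE 0.18, adjusted p = 0.030). Zdhhc8 fell by 0.85 (SE 0.16, adjusted p = 0.014), Dgcr8 fell by 0.45 (SE 0.10, adjusted p = 0.025) and Prodh fell by 1.29 (SE 0.34, adjusted p = 0.042). The 3 that fell compare with 7.2% of genes called lower and the 2 that rose with 6.34% called higher. All 5 differed from WT in the same direction in both Hdac3KO samples, but none passed when either WT sample at 0h was left out, where 2.73% and 2.93% of all genes were called.

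Slc25a1, with a log2 difference of -0.92 (SE 0.29, adjusted p = 0.073), and Crkl, with -0.41 (SE 0.13, adjusted p = 0.082), did not pass the test, and the Hdac3KO samples at 0h were at 171 and 80.2 CPM for Slc25a1 and at 159 and 123 CPM for Crkl. The median log2 difference of the 26 members was -0.27, against 0.00 over all genes tested. It was 0.01 without the Rep2 sample and -0.61 without the Rep1 sample. The latter compares Rep2, used in the selection, with WT, so nothing is read from the gap between them. With the replicate number as a block 10 members were called, and so were 21.7% of all genes against 13.5% without it. This block pairs a WT with an Hdac3KO sample by number alone, for which the labels give no ground. Deviations of same-numbered samples at 0h correlated only weakly across genotypes (r across genes = 0.18).

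The Rep1 sample was compared with WT on its own, with the spread taken from the WT duplicates only and assumed to hold for Rep1. This contrast does not use Rep2. It called 9 of 26 members, 5 lower (11.7% of all genes) and 4 higher (11.4%). Dgcr2 (-0.31), Slc25a1 (-0.47), Prodh (-0.88), Zdhhc8 (-0.67) and Dgcr8 (-0.46) fell and Top3b (0.38), Klhl22 (0.66), Arvcf (0.96) and Gnb1l (0.45) rose on the log2 scale, with adjusted p from 3.6e-10 (Arvcf) to 0.045 (Dgcr2) in edgeR's quasi-likelihood test. The median over the 26 members was 0.01. With the samples of both times, 9 members were below all 4 WT samples in both Rep1 samples (25.4% of all genes) and 5 were above (25.5%).

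The Rep2 sample on its own against WT is the contrast used in the selection, so only its estimates are given and no calls. For Dgcr8 the estimates of the replicates were nearly equal, -0.46 in Rep1 and -0.44 in Rep2, whereas for Slc25a1 they were -0.47 and -1.57 and for Gnb1l 0.45 and -0.63. Both estimates share the WT samples.

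**Figure D5:**
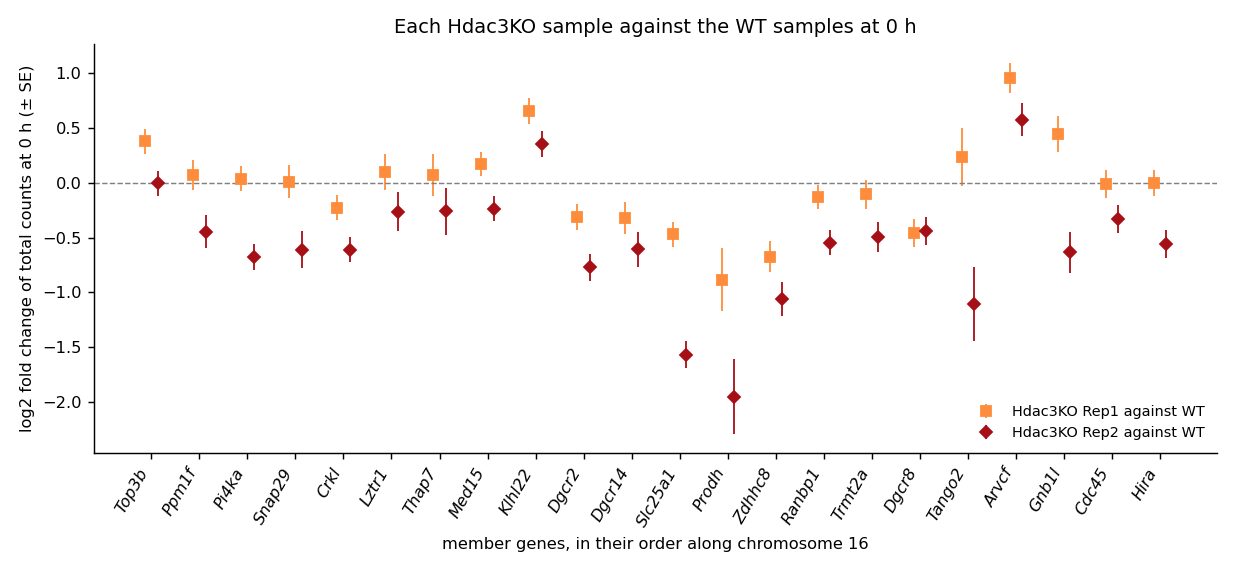
Points give the log2 fold change of total counts at 0h of the Hdac3KO Rep1 sample (squares) and the Rep2 sample (diamonds) against both WT samples, with bars of 1 SE from edgeR, for the scored members in chromosome order. Rep2 lies below Rep1 in all genes but Dgcr8, and both share the WT samples. Because the members were selected on this split, nothing is read from that.

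The B6:Cast ratio was tested in the same way between genotypes at 0h, in 1 edgeR fit over all 8 samples. It called 0 of 22 members at an adjusted p under 0.05 (0.667% of 9595 genes), and 1, Arvcf, had an unadjusted p under 0.05. The median log2 difference of the ratio was 0.38, and limma on the d-score called 0 as well. The Hdac3KO samples at 0h include Rep2, which was used in the selection. The median was 0.04 without the Rep2 sample and 0.92 without the Rep1 sample. With Hdac3KO samples so unlike, the 0 calls do not show that the balance was unchanged.

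The samples after 24h of Dox were tested next against those at 0h for changes of these autosomal genes. All samples at 24h had both Dox and high Xist, so Dox, time and Xist cannot be told apart. On total counts edgeR called 0 of 26 members in WT (0.214% of 14044 genes), 0 of 26 in Hdac3KO (0.0214%) and 0 of 26 for the interaction of genotype and time (0.0%). DESeq2 and limma voom called 0 members in each of these, and at an unadjusted p under 0.05 there were 1, 0 and 0 members. Over all genes the interaction had 265 at an unadjusted p under 0.05, and DESeq2 called 1 gene and limma voom 0. The 1 member was Arvcf, with a log2 difference of 0.56 in WT (SE 0.22, adjusted p = 0.62). With the replicate number as a block, which called 10.7% of all genes in WT and 1.91% in Hdac3KO, 2 members passed in WT and 1 in Hdac3KO. Arvcf passed in WT at 0.55 (SE 0.08, adjusted p = 3.7e-07) and in Hdac3KO at 0.33 (SE 0.07, adjusted p = 0.0017), and Dgcr2 passed in WT at -0.24 (SE 0.06, adjusted p = 0.0041).

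For the B6:Cast ratio with Dox, edgeR called 0 of 22 members in WT (1.61% of 9595 genes), 0 in Hdac3KO (0.406%) and 0 for the interaction (0.208%), none of them at an unadjusted p under 0.05, and limma on the d-score called 0 in each. The members' B6:Cast log2 differences with Dox ranged from -0.33 to 1.10 in WT and from -0.45 to 0.31 in Hdac3KO. The median d-score of the members in Rep2 was 0.494 before and 0.490 after Dox, so the balance of that replicate was present at 0h.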

How the data were processed

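RNA-seq reads of 8 samples were used as deposited. Per the methods, the authors removed rRNA reads, mapped the rest with TopHat2 (2.1.0 in the submitters' processing notes) and counted fragments per strand on exons with featureCounts (1.5.1); the build is mm10. The deposited tables hold total, B6 and Cast counts per symbol, with no normalization. The d-score was deposited as a fraction, B6 over B6 plus Cast counts, for genes with at least 10 allelic reads, and recomputed values matched in every row to within 5e-07.

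The members and gene lists were chosen with earlier results of these data known. Named with values per sample are members with the most allelic reads, Tbx1, Dgcr8, Hira, Crkl, Prodh and members called by a test. Some further members and Ufd1 were chosen after their values were seen.

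Symbols were placed with GENCODE M21 (GRCm38), 284 of them through a RefSeq synonym (Dgcr14 as Ess2), and 376 stayed unplaced. TPM used its exon lengths. Levels are TMM-scaled CPM, and differences use log2(CPM + 0.5). Total counts were tested with edgeR 4.0.16 (glmQLFit, TPM above 1 in at least 2 samples), with all 8 samples in 1 fit for Dox; the B6:Cast ratio used B6 and Cast columns with a term per sample. Adjustment was by Benjamini-Hochberg over all genes tested. Alternatives used DESeq2 1.42.0 and limma 3.58.1. Scripts were tested on simulated data. With 2 samples per group, p-values measure the spread between these samples, which for WT may be technical.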

Additional observations from a re-analysis of the deposited data

How the results depend on the processing

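The median d-score difference of the members (0.141) was 0.151 with samples at 0h alone, 0.157 at 24h alone and 0.155 against Hdac3KO Rep1 alone, and 0.143 to 0.157 with each sample left out. The median total difference (-0.56) was -0.61 against WT alone and -0.47 against Rep1 alone, and -0.59 to -0.53 with each sample left out. The Cast median stayed between -0.86 and -0.76 in all 16 alternatives run. The B6 median (-0.05) turned to 0.032 at 0h alone, to 0.053 against Rep1 alone and to 0.0043 without the Hdac3KO sample 2 at 24h; the range with each sample left out was -0.072 to 0.0043. Scaling without chromosome 16 or by DESeq2 size factors, a pseudocount of 0.1 and a minimum of 50 allelic reads kept each sign.

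The 5 members called at 0h of 26 (13.5% of all genes) became 7 with DESeq2 (12.5%), 5 with limma voom (13%), 10 of 31 with no filter on low counts (15.9%) and 10 with the replicate block (21.7%). Leaving out 1 sample gave 0 (either WT sample, 2.73% and 2.93%) to 21 (Hdac3KO Rep1, 26%), with 9 without Rep2 (23.1%). For the B6:Cast ratio it gave 0 to 3, the highest without Rep1 (1.26%). Nothing is read from the counts without Rep1, which compare Rep2, used in the selection, with WT. With Dox in WT, 1 of 31 members was called with no filter (Arvcf, 1.34% of all genes) and 2 with the replicate block (10.7%), and in Hdac3KO 1 with the block (1.91%); the block changed no other count of called members. Same-numbered Hdac3KO samples at 0h and 24h deviated together in total level (r across genes = 0.59, 0.58 without chromosome 16), more than WT samples (0.25) or samples across genotypes (0.15 to 0.19), which is a hint from the data and not from the design, since the labels do not say what a number marks. Depth limits members under about 50 allelic reads, such as Thap7 and Ranbp1, and Tbx1 altogether.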
